A study of Mus musculus with 2 samples.

Results

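The machinery with which a cell senses lipopolysaccharide (LPS) is encoded by a small set of genes, whose transcripts were followed here across tumour endothelial cells (ECs) from a PBS-treated and a cGAMP-treated tumour. They are Lbp, Cd14, Tlr4, Ly96 and Myd88, taken by name, and all 5 were present among the 17139 genes of both single-cell tables.

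LPS is the outer-membrane glycolipid of Gram-negative bacteria. LPS-binding protein, encoded by Lbp, takes LPS from aggregates and hands it to CD14, a GPI-anchored surface protein, which passes it to MD-2, encoded by Ly96. MD-2 sits on the ectodomain of the receptor TLR4, and the loaded complex pairs up and recruits the adaptor MyD88, which leads to NF-kB. MyD88 also serves most other Toll-like receptors and the receptors of the IL-1 family. ECs in many tissues respond to LPS, whereas CD14 is best known from monocytes and macrophages, and LBP is best known as an acute phase protein of the liver.

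The data comprised 2 droplet-based scRNA-seq libraries of ECs sorted as CD45-, CD31+ and Sytox Green- from LLC tumours. LLC is a Lewis lung carcinoma line, grown under the skin of male C57BL/6J mice that were 8 to 9 weeks old at implantation. The PBS group had tumours injected with PBS, and the cGAMP group had tumours injected with 3'3'-cGAMP, a cyclic dinucleotide that binds STING, in the same volume of PBS. The mice carried no transgene or deletion that the sources name. Each library came from 1 mouse, so there was no spread between mice, no test was made, and differences are between these libraries. The methods of the study and a main figure legend give the same time from injection to sampling for these data. A supplementary legend gives a shorter time, so the time is not fully certain.

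The PBS library held 2517 ECs and 92081146 unique molecular identifiers (UMIs, each standing for a captured transcript), with a median of 29780 per cell. The cGAMP library held 1340 ECs and 63366746 UMIs, with a median of 41178 per cell. The libraries shared 1 cell barcode. The pan-endothelial genes Pecam1 (944 and 824 CPM in PBS and cGAMP) and Cdh5 (1146 and 1008) were high in both libraries. Levels are the summed UMIs of a gene scaled to a total of 1000000 UMIs in the same cells, written as CPM. Because each transcript is counted near its 3' end, CPM is not divided by length, and levels are compared between cells and libraries, not between genes. All intervals are exact 95% intervals that cover counting error only.

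ECs were grouped into 8 clusters without use of the 5 genes, of their pathway lists or of genes that differed at least 2-fold between the libraries. Marker lists named 5 of the clusters. The stalk-like cluster was led by Ackr1 and Selp, genes of venular endothelium, with 13 of 15 stalk-like markers raised, and held 324 PBS-treated and 321 cGAMP-treated ECs. The arterial cluster was led by Gja4 and Nts (346 and 178 ECs), and the proliferative cluster by Ube2c and Cenpf (489 and 183 ECs). A pair of clusters was tip-like, the Gal/Chga cluster (373 and 126 ECs) and the Pgf/Bnip3 cluster (110 and 65 ECs). The other clusters remained unnamed and are called by their leading genes. The Ramp3/Igfbp3 cluster (640 and 277 ECs) raised no list of markers, and the Ung/Hells cluster (187 and 138 ECs) was led by genes of DNA replication. The Igfbp5/Ctsh cluster (48 and 52 ECs) raised 15 of 15 stalk-like markers, but none of these stood among its 10 leading genes and the arterial marker Mgp did. Stalk-like ECs were 12.9% of the ECs with PBS and 23.96% with cGAMP, and the Igfbp5/Ctsh cluster 1.91% and 3.88%.

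Over all ECs, Cd14 and Lbp were more than 2-fold higher in the cGAMP library, Myd88 and Ly96 were higher by less, and Tlr4 was at about the same level in both. At least 2-fold higher levels were thus found for 2 of the 5 genes, against 1.82% of the 9509 genes that reached 5 CPM with PBS or cGAMP, and none of the 5 was at least 2-fold lower, against 1.70% of those genes. The median log2 ratio of those 9509 genes was -0.08.

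Cd14 was at 32.5 CPM with PBS (2989 UMIs, 31.3 to 33.6) and at 67.9 CPM with cGAMP (4301 UMIs, 65.9 to 69.9). The log2 ratio of cGAMP over PBS was 1.06 (0.997 to 1.13), higher than that of 98.3% of the 9509 genes. Lbp was at 10.8 CPM with PBS (996 UMIs, 10.2 to 11.5) and at 27.0 CPM with cGAMP (1709 UMIs, 25.7 to 28.3), a log2 ratio of 1.32 (1.205 to 1.43). For both genes the counting intervals of the libraries lay far apart. With the share of UMIs from each cluster held equal in both libraries, the log2 ratio of Cd14 was 0.49 and that of Lbp 0.40, so that much of both differences moved with the larger shares of stalk-like and Igfbp5/Ctsh cells in the cGAMP library. For Lbp this depended on the clustering: with clusters made without integration of the libraries, equal shares gave 0.185 for Cd14 and 1.26 for Lbp.

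Myd88 was at 28.7 CPM with PBS (2644 UMIs, 27.6 to 29.8) and at 40.8 CPM with cGAMP (2584 UMIs, 39.2 to 42.4), a log2 ratio of 0.51 (0.43 to 0.58). Ly96 was at 36.2 CPM (3330 UMIs, 34.9 to 37.4) and 44.1 CPM (2792 UMIs, 42.4 to 45.7), a log2 ratio of 0.28 (0.21 to 0.36). Tlr4 was at 15.6 CPM (1438 UMIs, 14.8 to 16.4) and 16.8 CPM (1067 UMIs, 15.8 to 17.9), and the interval of its log2 ratio of 0.11 reached from -0.01 to 0.22. Equal cluster shares left these 3 ratios at 0.40, 0.30 and 0.02. The adaptor and the LPS-binding chain of the receptor were thus modestly higher with either weighting, while the receptor chain was not.

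**Figure D1:**
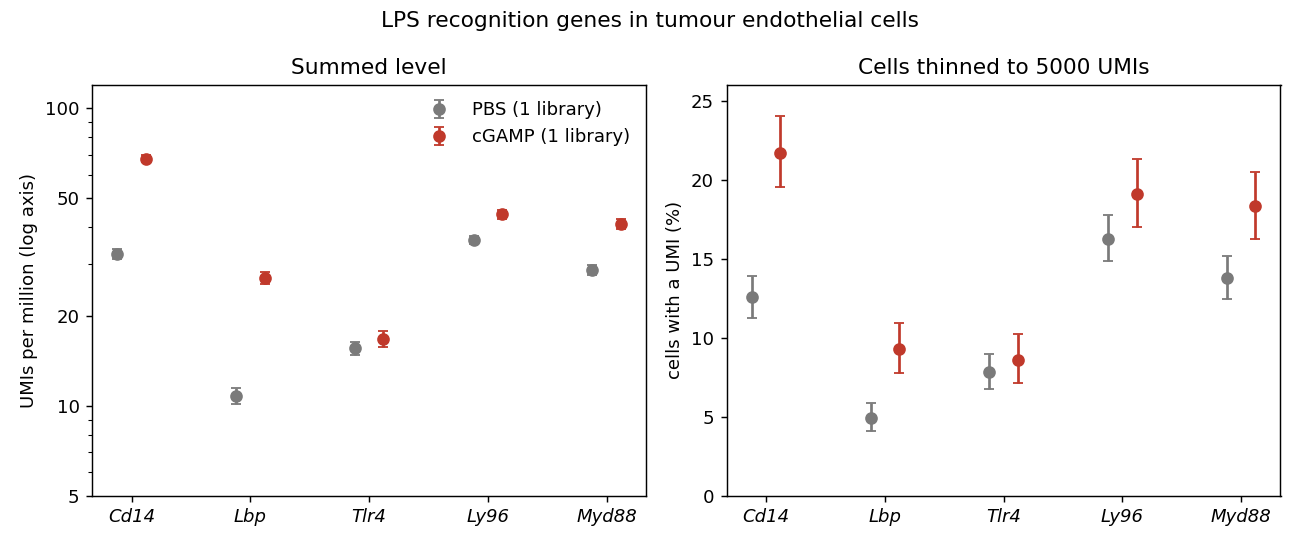
Summed level of each gene in CPM on a log axis (left) and percent of cells with at least 1 UMI after each cell was thinned to 5000 UMIs (right), for the PBS library (grey) and the cGAMP library (red), with exact 95% counting intervals and 1 library per group. Cd14 and Lbp lay more than 2-fold higher in the cGAMP library, Myd88 and Ly96 lay higher by less, and the Tlr4 intervals overlapped.

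After thinning to 5000 UMIs per cell, Cd14 was found in 12.5% of PBS-treated ECs (307 of 2447, 11.3 to 13.9%) and in 21.7% of cGAMP-treated ECs (288 of 1327, 19.5 to 24.02%). Lbp was found in 4.94% and 9.27%, Myd88 in 13.8% and 18.3%, Ly96 in 16.3% and 19.1%, and Tlr4 in 7.81% and 8.59% of the same cells. At this depth the intervals of the libraries did not overlap for Cd14, Lbp and Myd88, and overlapped for Ly96 and Tlr4. For Myd88 and Ly96 this depended on the depth. At 2000 UMIs Myd88 was found in 5.87% (4.98 to 6.87%) with PBS and 5.76% (4.57 to 7.15%) with cGAMP. At 10000 UMIs Ly96 was found in 29.5% (27.6 to 31.4%) and 37.5% (34.8 to 40.2%). In whole cells, which were deeper in the cGAMP library, Tlr4 was found in 37.7% and 47.9% and Ly96 in 62.8% and 78.1% of ECs. Lyz2, a gene of macrophages and neutrophils that ECs are not expected to express and that here serves as a measure of free RNA, was found in 2.17% (PBS) and 6.48% (cGAMP) of ECs at the same 5000 UMIs.

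Cd14, the gene of the LPS carrier at the cell surface (chromosome 18, 36725067 to 36726798 on the minus strand of GRCm38, 2 exons), differed widely between EC clusters. In the PBS library its level was highest in stalk-like ECs, at 138.2 CPM (130.1 to 146.8), followed by the Igfbp5/Ctsh cluster at 93.3, proliferative ECs at 41.9, the Ung/Hells cluster at 25.4 and the Ramp3/Igfbp3 cluster at 17.9. It was lowest in the tip-like Gal/Chga cluster at 8.71 (7.32 to 10.3), the tip-like Pgf/Bnip3 cluster at 8.23 (5.63 to 11.6) and arterial ECs at 5.33 (3.88 to 7.16). The intervals of neighbours in this order did not overlap except among the lowest 3. The log2 ratio of stalk-like over all other ECs was 2.60 in the PBS and 1.996 in the cGAMP library, where stalk-like ECs were at 163.0 CPM and the others at 40.9. In the same comparison 3.59% of the 9509 genes in the PBS and 1.92% in the cGAMP library were at least 2-fold higher in stalk-like ECs.

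Stalk-like ECs gave 35.9% of the Cd14 UMIs of the PBS library and 53.1% of those of the cGAMP library. After thinning, Cd14 was found in 39.0% of stalk-like ECs with PBS (33.5 to 44.6%) and 47.8% with cGAMP (42.2 to 53.4%). In arterial ECs it was found in 3.95% and 3.43%, and Lyz2 in 1.22% and 9.71% of the same cells. The arterial share of Cd14 was thus above that of Lyz2 in the PBS library and below it in the cGAMP library, where it is not read as expression. In the Pgf/Bnip3 cluster of the PBS library, Cd14 and Lyz2 were each found in 2 of 108 thinned cells. There too Cd14 is not read as expression. The share of Cd14 that free RNA gives was not measured.

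Within clusters, the Cd14 difference between the libraries was uneven. It was small in stalk-like ECs (log2 ratio 0.24, 0.13 to 0.34), and the proliferative ratio of -0.07 had an interval that included 0 (-0.24 to 0.09). It was larger in the Igfbp5/Ctsh cluster, from 93.3 CPM to 272.9 CPM (1.55, 1.23 to 1.88), in the Ung/Hells cluster, from 25.4 to 52.1 CPM (1.04, 0.80 to 1.27), and in the Ramp3/Igfbp3 cluster, from 17.9 to 29.7 CPM (0.73, 0.53 to 0.93). The largest ratios were those of the tip-like Gal/Chga cluster (1.71, from 8.71 to 28.4 CPM) and Pgf/Bnip3 cluster (2.23, from 8.23 to 38.5 CPM), and each rested largely on a single cell. In the Gal/Chga cluster, 1 cell held 91 of 184 Cd14 UMIs, and in the Pgf/Bnip3 cluster 1 cell held 62 of 116. The second of these held 711 UMIs of leucocyte markers, against a median of 2 per cell in that library, and the first held 1. Without the highest cell of each library, the ratios were 0.78 (0.39 to 1.18) and 1.25 (0.57 to 1.95). The arterial ratio went from 0.79 to 0.65 in the same way, and those of the other clusters moved by less. The small stalk-like difference depended on the clustering. At a finer resolution of 1.2, a stalk-like cluster led by Fjx1 and Ackr1 went from 225.8 to 371.3 CPM. A stalk-like cluster that took in Igfbp5/Ctsh cells went from 171.5 to 296.3 CPM without integration. At a resolution of 0.3 such a cluster went from 131.6 to 173.8 CPM.

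Because CD14 is a myeloid marker, its level was compared between ECs with and without UMIs of a list of leucocyte markers. The summed macrophage list of 12 genes, none at 0 in either library, was at 21.6 CPM in the PBS and 48.4 CPM in the cGAMP library. Over the clusters it ranged from 17.1 to 46.3 CPM in the PBS and from 43.9 to 58.5 CPM in the cGAMP library, a far narrower span than that of Cd14. In ECs with no UMI of any leucocyte marker, Cd14 was at 31.4 CPM (1384 PBS-treated cells, 29.6 to 33.2) and 64.3 CPM (232 cGAMP-treated cells, 58.2 to 70.9), close to the levels of all ECs, and the log2 ratio was 1.04. In ECs with at least 5 such UMIs it was lower, at 21.4 and 56.0 CPM. Cells with no such UMI held fewer UMIs in all, and the split was not matched for depth or cluster. The part of leucocyte RNA in the Cd14 level was not tested.

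Lbp, the gene of the soluble LPS transfer protein (chromosome 2, 158306493 to 158332852 on the plus strand, 15 exons), was the most restricted of the 5. In the Igfbp5/Ctsh cluster it was at 323.6 CPM with PBS (347 UMIs, 290.5 to 359.5) and at 460.1 CPM with cGAMP (666 UMIs, 425.8 to 496.4). In stalk-like ECs it was at 49.1 CPM (44.3 to 54.3) and 55.6 CPM (51.7 to 59.6). Every other cluster lay below 15 CPM in both libraries. Proliferative ECs were at 6.39 and 8.65 CPM, the Ung/Hells cluster at 5.83 and 14.7, the Ramp3/Igfbp3 cluster at 1.76 and 2.53, arterial ECs at 2.42 and 0.72, and the tip-like Gal/Chga cluster at 0.50 and 1.39 CPM. The tip-like Pgf/Bnip3 cluster held 0 Lbp UMIs in the PBS library, which allows a level of up to 0.77 CPM at 3 UMIs, and 1 UMI in the cGAMP library.

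The 48 PBS-treated ECs of the Igfbp5/Ctsh cluster, 1.91% of all, gave 34.8% of the Lbp UMIs of their library, and the 52 cGAMP-treated ECs gave 39.0%. Together with stalk-like ECs they accounted for most of the transcript. The log2 ratio of this cluster over all other ECs was 5.50 in the PBS and 4.77 in the cGAMP library; 6.22% and 5.84% of the 9509 genes were at least 2-fold higher there. After thinning, Lbp was found in 78.7% (37 of 47 cells, 64.3 to 89.3%) and 69.2% (36 of 52 cells, 54.9 to 81.3%) of this cluster and in 19.2% and 19.4% of stalk-like ECs. In tip-like ECs of the Gal/Chga cluster it was found in 0 of 371 and 1 of 125 cells.

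In the clusters that held most of its UMIs, Lbp differed less between the libraries than over all ECs. The log2 ratio was 0.18 (-0.00 to 0.36) in stalk-like ECs and 0.51 (0.32 to 0.70) in the Igfbp5/Ctsh cluster, against 1.32 over all ECs. In the Ung/Hells cluster it was 1.33 (0.85 to 1.82), on 54 and 117 UMIs, and in the Gal/Chga cluster 1.46 (-0.08 to 3.04), on 8 and 9 UMIs. In arterial ECs it was negative, at -1.75 (-3.76 to -0.17), on 20 and 4 UMIs. With cGAMP, Lbp was found in 4.38% of thinned Ung/Hells cells, below Lyz2 at 5.11%, and is not read as expression there. In both libraries its share lay below that of Lyz2 in the Ramp3/Igfbp3 cluster, arterial ECs and both tip-like clusters. With cGAMP the shares were 1.47% against 6.96% in the Ramp3/Igfbp3 cluster and 1.14% against 9.71% in arterial ECs. Lbp is not read as expression in these clusters either. The share of Lbp that free RNA gives was not measured. Without the Igfbp5/Ctsh cluster the ratio over all remaining ECs was 1.24. No single cell dominated, since the 5 highest cells held 12.0% of Lbp UMIs in the PBS and 13.3% in the cGAMP library, and without them the ratio was 1.30. The smaller differences within clusters depended on integration. Without it, a stalk-like cluster that took in Igfbp5/Ctsh cells held 68.0% (PBS) and 53.1% (cGAMP) of Lbp UMIs. Lbp went from 124.6 to 320.3 CPM in that cluster.

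**Figure D2:**
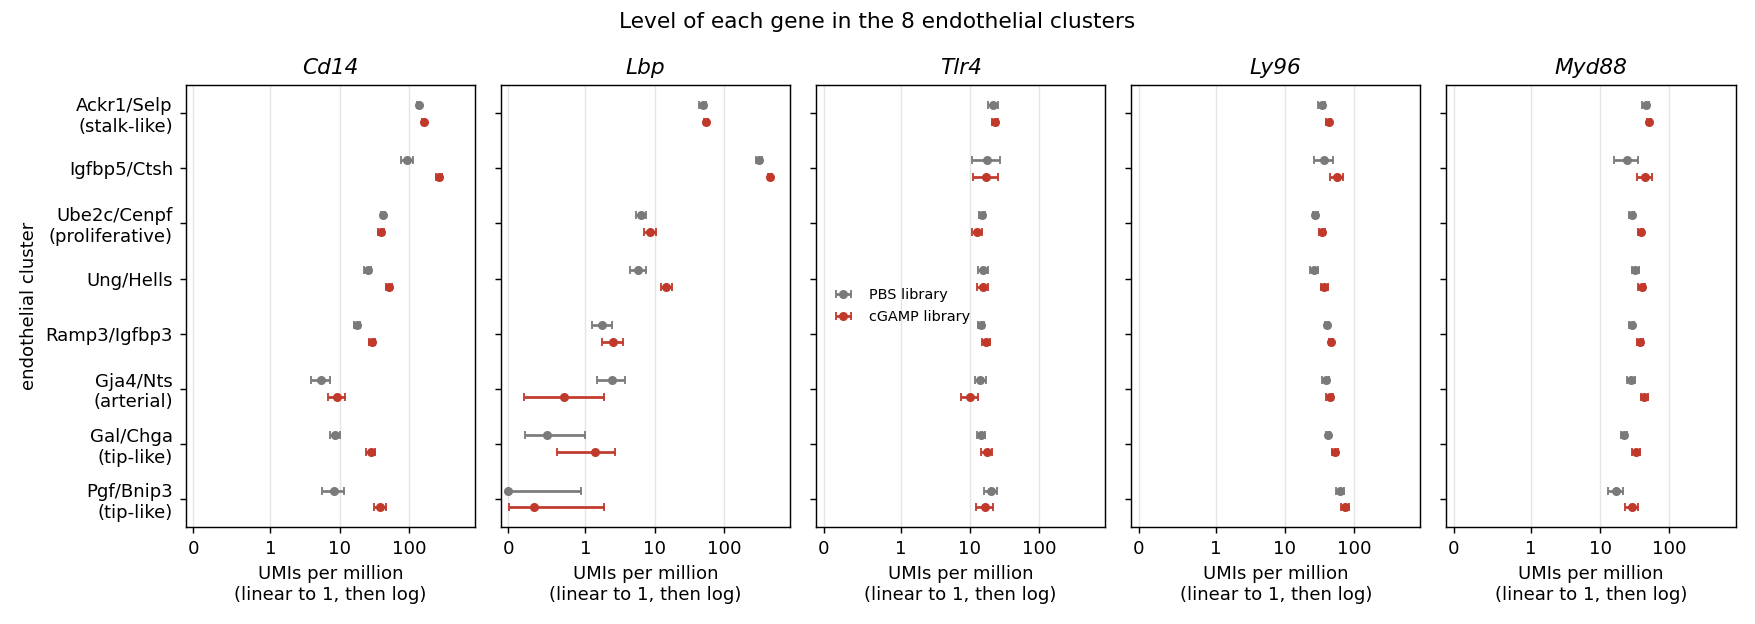
Level of each gene in CPM (x axes, linear up to 1 and logarithmic above) in the 8 EC clusters of the PBS library (grey) and the cGAMP library (red), with exact 95% counting intervals. Cd14 and Lbp ranged over more than 10-fold between clusters and were highest in stalk-like ECs and the Igfbp5/Ctsh cluster, whereas Tlr4, Ly96 and Myd88 stayed within 3-fold in each library.

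Tlr4, the signalling receptor (chromosome 4, 66827584 to 66930284 on the plus strand, 3 exons), differed far less between clusters than Cd14 and Lbp. In the PBS library it ranged from 14.2 CPM in arterial ECs to 21.7 CPM in stalk-like ECs, a 1.53-fold span, and in the cGAMP library from 9.92 CPM in arterial ECs to 23.1 CPM in stalk-like ECs, a 2.33-fold span. Stalk-like ECs were thus the highest in both, with a log2 ratio over all other ECs of 0.52 (0.28 to 0.76) and 0.62 (0.43 to 0.81), although their interval overlapped those of the next clusters in the order. In the PBS library the other 7 clusters lay between 14.2 and 20.1 CPM with overlapping intervals. Between libraries, the ratio was positive in 3 of 8 clusters, and only that of arterial ECs had an interval that excluded 0 (-0.52, -1.01 to -0.04, from 14.2 to 9.92 CPM). The receptor transcript was sparse in single cells, with at most 8 UMIs in any PBS-treated and 6 in any cGAMP-treated EC. After thinning it was found in a larger share of cells than Lyz2 in each cluster of the PBS library. In the cGAMP library its share did not exceed that of Lyz2 in arterial ECs (7 and 17 of 175 cells), proliferative ECs (5.56% for both) and the Igfbp5/Ctsh cluster (9.62% and 11.5%). The intervals of Tlr4 and Lyz2 overlapped in each of them. Tlr4 was at 17.7 CPM with PBS and 17.3 CPM with cGAMP in the Igfbp5/Ctsh cluster. The share of Tlr4 that free RNA gives was not measured, so neither expression nor its absence is read from these shares.

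Ly96, encoding the LPS-binding partner MD-2 (chromosome 1, 16688051 to 16709611 on the plus strand, 5 exons), had a pattern of its own. It was highest in the tip-like Pgf/Bnip3 cluster, at 62.3 CPM in the PBS library (54.7 to 70.6) and 72.8 CPM in the cGAMP library (63.4 to 83.1). The leading genes of that cluster include Bnip3, Ankrd1, Adm and Egln3, of which Bnip3, Adm and Egln3 are known targets of hypoxia signalling. The lowest levels were those of the Ung/Hells cluster (26.5 CPM) and proliferative ECs (27.3 CPM) in the PBS library, and of proliferative ECs (34.1 CPM) in the cGAMP library. The log2 ratio of both tip-like clusters together over all other ECs was 0.46 (0.35 to 0.57) and 0.52 (0.38 to 0.65). In the PBS library the highest Ly96 level was therefore found in a cluster with little Cd14 and no Lbp UMI. Ly96 was higher in the cGAMP library in all 8 clusters, with log2 ratios from 0.19 in arterial ECs to 0.62 in the Igfbp5/Ctsh cluster, and 14.0% of the 9509 genes were higher in every cluster. The intervals of the arterial and the Pgf/Bnip3 ratio included 0.

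Myd88, the adaptor gene (chromosome 9, 119335934 to 119341411 on the minus strand, 6 exons), was highest in stalk-like ECs of both libraries, at 45.5 CPM (40.9 to 50.5) and 50.7 CPM (47.1 to 54.6). It was lowest in the tip-like Pgf/Bnip3 cluster, at 17.0 and 28.9 CPM. It too was higher in the cGAMP library in all 8 clusters. The log2 ratio was smallest in stalk-like ECs, at 0.16 (-0.03 to 0.34), and largest in the Igfbp5/Ctsh cluster, at 0.87 (0.19 to 1.58). Arterial ECs went from 28.1 to 43.6 CPM (0.63, 0.37 to 0.90), the tip-like Gal/Chga cluster from 22.2 to 32.9 CPM (0.57, 0.32 to 0.82) and proliferative ECs from 28.6 to 38.3 CPM (0.42, 0.25 to 0.60). The span between the highest and the lowest cluster was 2.68-fold in the PBS and 1.75-fold in the cGAMP library. The annotated Myd88 gene overlaps Slc22a14 on the same strand and Acaa1a on the opposite strand, and reads in the shared stretches are uncertain. No other of the 5 genes overlaps an annotated gene.

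**Figure D3:**
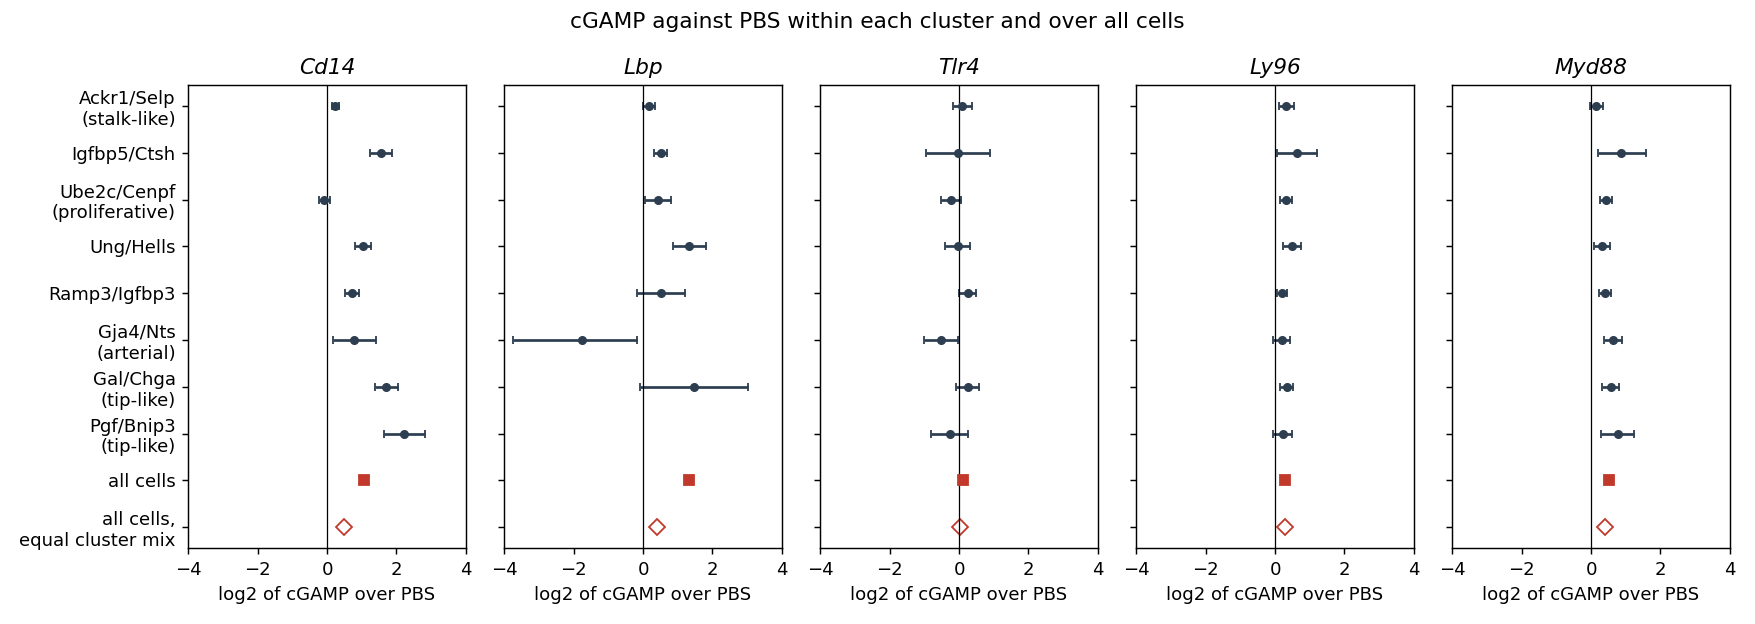
Log2 of the level in the cGAMP library over that in the PBS library for each gene, within each EC cluster (dark points), over all cells (red squares) and over all cells with equal cluster shares (open diamonds), with exact 95% counting intervals except for the diamonds. Lbp in the Pgf/Bnip3 cluster has no ratio because it had 0 UMIs in the PBS library. Myd88 and Ly96 lay above 0 in all 8 clusters, and the diamonds of Cd14 and Lbp lay nearer to 0 than their squares.

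The sequence around the start of Myd88 is shown because the gene was higher in every cluster. Of the 7 genes of the pathway lists below that were also higher in every cluster, 6 had an entry, and Socs1 and Casp4 are shown beside Myd88 because they held more than 1 match, a choice made after the matches were seen. The windows hold 250 bases before and 50 bases after the start as annotated by RefSeq on GRCm38.p6, and 1 of the 5 LPS recognition genes had an entry. The RefSeq start of Myd88 lies at 119340018, and the coding transcripts of the GENCODE annotation used for the positions above start 23 bases (Myd88-201) and 1393 bases (Myd88-202) upstream of it, so that the window lies inside the gene as GENCODE bounds it. The windows are chr9:119339969-119340268 (minus strand) for Myd88, chr16:10785487-10785786 (minus strand) for Socs1 and chr9:5308599-5308898 (plus strand) for Casp4. Capitals mark matches on either strand to 3 patterns chosen after the levels were seen: GAAANNGAAA, the core of the interferon-stimulated response element (ISRE), TTCNNNGAA, the STAT-binding GAS pattern, and GGGNNNTTCC, a pattern of kappaB sites.
Myd88: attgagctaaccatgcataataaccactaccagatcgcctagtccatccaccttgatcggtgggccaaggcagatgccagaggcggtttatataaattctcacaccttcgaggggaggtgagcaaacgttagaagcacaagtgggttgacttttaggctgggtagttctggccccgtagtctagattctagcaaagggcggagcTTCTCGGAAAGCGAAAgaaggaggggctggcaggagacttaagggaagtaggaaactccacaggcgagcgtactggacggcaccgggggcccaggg
Socs1: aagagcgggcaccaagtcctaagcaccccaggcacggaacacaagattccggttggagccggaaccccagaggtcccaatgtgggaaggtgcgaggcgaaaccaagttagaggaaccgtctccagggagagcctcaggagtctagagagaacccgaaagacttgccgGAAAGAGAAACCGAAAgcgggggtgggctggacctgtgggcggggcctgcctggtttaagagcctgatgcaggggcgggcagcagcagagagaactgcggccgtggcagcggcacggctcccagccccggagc
Casp4: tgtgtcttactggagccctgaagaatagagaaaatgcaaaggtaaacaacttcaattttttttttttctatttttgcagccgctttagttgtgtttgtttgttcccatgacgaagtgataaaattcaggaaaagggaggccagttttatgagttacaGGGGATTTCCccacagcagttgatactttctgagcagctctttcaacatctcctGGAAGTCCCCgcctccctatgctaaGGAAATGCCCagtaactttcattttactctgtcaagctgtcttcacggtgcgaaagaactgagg
The Myd88 window held 1 ISRE match that begins 40 bases before the RefSeq start and 1 GAS match that overlaps it and begins 46 bases before that start. The Socs1 window held 2 overlapping ISRE matches, which begin 83 and 77 bases before the start, and the Casp4 window held 3 kappaB-like matches and none of the others. The Nfkbia window held 1 kappaB-like match, and those of Lcn2, S100a9 and Ube2n held 0 matches to any of the 3 patterns. Of 27025 promoter windows of this length, 3.49% held an ISRE match, 8.47% a GAS match and 5.52% a kappaB-like match. List genes that were not higher in the cGAMP library held matches too. A window of Ripk1 (log2 ratio -0.08) held 1 ISRE match and 2 GAS matches, and that of Il1rap (-0.01) held 1 ISRE match. A match describes letters and is no measured binding site.

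In single cells, Cd14 and Lbp were found together more often than the product of their shares, in 49 of 2447 thinned PBS-treated ECs where the product gives 15.2, and in 68 of 1327 cGAMP-treated ECs where it gives 26.7. The products were taken over all clusters, and both genes were highest in stalk-like ECs and the Igfbp5/Ctsh cluster. Whether such an excess exists within a cluster was not tested. For the receptor chains no such excess was seen, with Tlr4 and Ly96 together in 28 PBS-treated and 23 cGAMP-treated ECs against products of 31.1 and 21.7. All of Cd14, Tlr4 and Ly96 were found in 6 and 5 thinned ECs. In whole cells, UMIs of Cd14, Tlr4 and Ly96 were all present in 12.9% of ECs with PBS and 28.9% with cGAMP, and 10.1% and 24.9% also of Myd88, but these shares follow depth, which differed between the libraries.

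Over the 16 sums of a cluster in a library, the genes whose log2(CPM + 1) was most like that of Cd14, among 6045 genes at 20 CPM or more, were Ackr1 (Pearson r = 0.95), encoding a chemokine-binding receptor of venules, Vcan (0.94), encoding the proteoglycan versican, and Acer3 (0.93). The nearest to Lbp were Bgn (0.97), encoding the proteoglycan biglycan, Sele (0.97), encoding E-selectin, and Nr2f2 (0.97), encoding the venous transcription factor COUP-TFII. For Ly96 they included Vps37a (0.92) and Atp6v1g1 (0.90), and they were for Myd88 Pgm1 (0.92), Hfe (0.89) and Gimap9 (0.89), and for Tlr4 Rap2b (0.77), Chst2 (0.75) and Pcdh7 (0.75). Among the 5 genes themselves, r was 0.86 for Cd14 and Lbp, 0.01 for Tlr4 and Myd88 and -0.17 for Ly96 and Myd88. These 16 points share 2 libraries and their depth and are a description only. The choice of genes depended on the measure. With Spearman correlation, 3 of the 3 most similar genes were kept for Cd14, 2 for Myd88 and 1 each for Lbp, Tlr4 and Ly96.

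The rest of the pathway was taken from 9 lists of 90 genes in all, of which 78 were in the tables and 48 reached 5 CPM. Of these 48, 25 were higher and 23 lower in the cGAMP library, with a median log2 ratio of 0.01, against 40.4% higher, 59.6% lower and a median of -0.08 for all 9509 genes. Equal cluster shares turned this to 23 higher and 25 lower (median -0.04). With median-of-ratios scaling, which sets that median to 0, 28 were higher and 20 lower. At least 2-fold higher were 5 (Socs1, S100a8, S100a9, Lcn2 and Serpina3g), and 0 were at least 2-fold lower. Higher in every cluster were 7 of the 48, near the 14.0% of all genes tested.

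Of the other Toll-like receptors, only Tlr3, the endosomal sensor of double-stranded RNA, reached 5 CPM, at 23.7 CPM in the PBS and 24.8 CPM in the cGAMP library (log2 ratio 0.06, -0.03 to 0.16). Tlr2, the receptor of bacterial lipopeptides, was at 3.68 and 4.29 CPM. Tlr1, Tlr6, Tlr7 and Tlr13 were each below 1 CPM, on 3 to 92 UMIs, and 5 further receptors were not in the tables.

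Of the genes that fold and carry the receptors, join them to their kinases or pass the signal on, none that reached 5 CPM was at least 2-fold different. Of 5 folding and trafficking genes 3 were higher and 2 lower (median 0.02), with Hsp90b1, the chaperone of Toll-like receptors, at 613.6 and 645.8 CPM and Tmed7, a cargo protein, at 68.5 and 62.8 CPM. Of the other adaptors, Tirap, which bridges TLR4 and MyD88, was at 21.5 and 21.4 CPM (-0.01, -0.11 to 0.09), and Ticam1, encoding the adaptor TRIF, was at 7.78 and 5.67 CPM (-0.46, -0.64 to -0.27). Neither was higher in the cGAMP library beyond counting error, unlike Myd88. Of 14 kinases, ligases and scaffolds 6 were higher and 8 lower (median -0.10), with Ube2n, a ubiquitin-conjugating enzyme, at 180.2 and 197.3 CPM and Ripk1, a kinase of the TRIF branch, at 73.2 and 69.1 CPM. Of the IL-1 receptor family, Il1r1 was at 29.9 and 30.1 CPM and Il1rap at 8.84 and 8.76 CPM. With equal cluster shares Il1r1 had a log2 ratio of -0.44, against 0.01 without.

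Of 9 inhibitors of the pathway 4 were higher and 5 lower (median -0.15). Socs1, which encodes an inhibitor of JAK kinases and of TIRAP, went from 6.64 to 17.8 CPM (log2 ratio 1.42, 1.28 to 1.56). It was higher in all 8 clusters, most in CPM in arterial ECs, from 9.94 to 32.5 CPM. Nfkbia, encoding the NF-kB inhibitor IkB-alpha and named after its values were seen, went from 897 to 1293 CPM (0.53, 0.51 to 0.54), also in all 8 clusters.

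Among 5 genes of other LPS handling 2 were higher and 3 lower (median -0.13). The membrane linker Msn was at 835 and 764 CPM, and Scarb1, a scavenger receptor that also takes up LPS, went from 221.5 to 125.3 CPM (-0.82, -0.86 to -0.78) and was lower in all 8 clusters. Casp4, which encodes the cytosolic LPS sensor caspase-11, went from 57.7 to 90.3 CPM (0.65, 0.59 to 0.70), and Gsdmd, its pore-forming substrate, from 23.9 to 36.6 CPM (0.61, 0.53 to 0.70). Both were higher in every cluster and were named after their values were seen. Casp4 was highest in stalk-like ECs of the PBS library (118.5 CPM) and in the Igfbp5/Ctsh cluster of the cGAMP library (144.4 CPM), the clusters in which Cd14 was highest too.

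Of 7 endogenous ligands of TLR2 or TLR4, 5 were higher and 2 lower (median 0.43). With equal cluster shares the median was 0.226, and Vcan went from a log2 ratio of 0.95 to 0.23 and Bgn, the proteoglycan gene nearest to Lbp by Pearson r, from 0.43 to -0.26. S100a8 went from 0.34 to 6.68 CPM and S100a9, its partner in calprotectin, from 0.27 to 9.96 CPM, but these are neutrophil genes and 1 cGAMP-treated cell held 245 of 423 S100a8 UMIs and 431 of 631 S100a9 UMIs. It was the cell of the Pgf/Bnip3 cluster with 62 Cd14 UMIs. Without it they were at 2.81 and 3.16 CPM, while the Cd14 ratio over all ECs was 1.04. The 5 neutrophil markers in the tables summed to 0.85 CPM in the PBS library, where 1 was at 0, and to 17.3 CPM in the cGAMP library. Of 3 acute phase genes all 3 were higher. Lcn2, encoding an iron-chelating protein of neutrophils and inflamed tissue, went from 0.56 to 15.0 CPM (44 and 227 cells with a UMI) and reached 32.4 CPM in stalk-like ECs, and that cell held 0 of its UMIs. Serpina3g, encoding a serine protease inhibitor, went from 3.16 to 10.5 CPM and reached 28.7 CPM in stalk-like ECs and 29.7 CPM in the Igfbp5/Ctsh cluster. The third, Lrg1, encoding a leucine-rich glycoprotein and named after its values were seen, was at 729 and 1023 CPM (0.49), with a log2 ratio of 0.05 at equal cluster shares. It was lower with cGAMP in stalk-like ECs (2322 and 1955 CPM) and in the Igfbp5/Ctsh cluster (3651 and 3252 CPM).

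**Figure D4:**
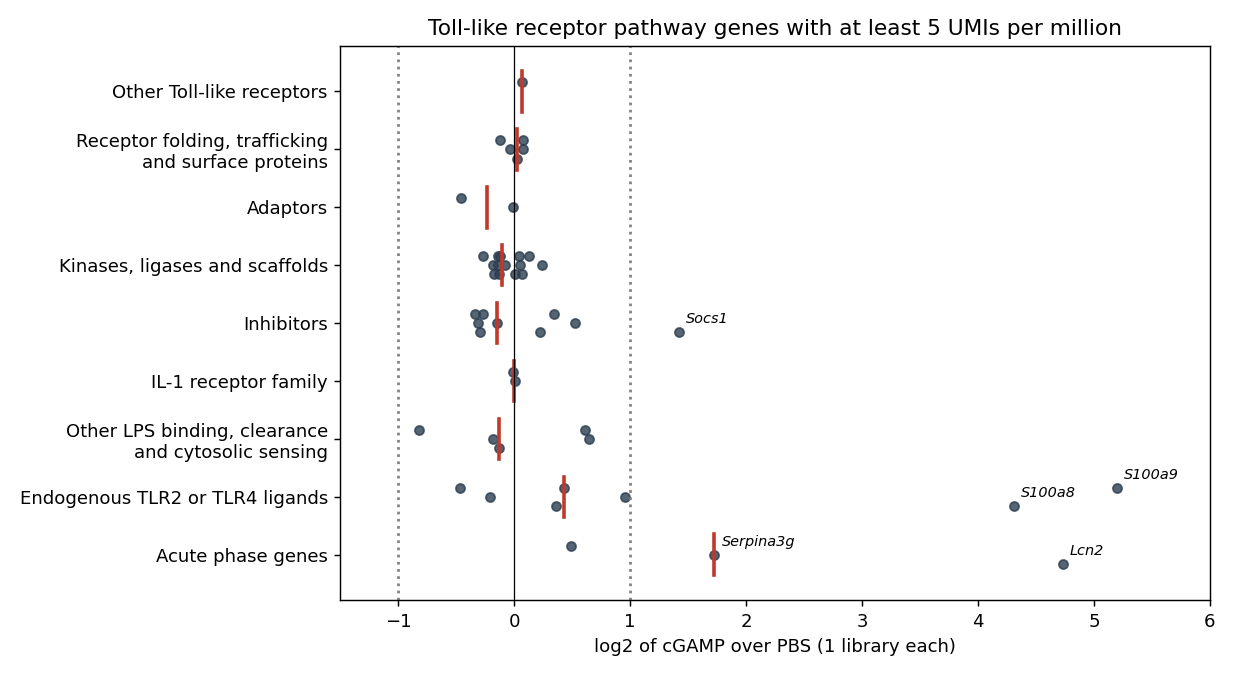
Log2 of the level in the cGAMP library over that in the PBS library (x axis) for the 48 pathway genes that reached 5 CPM, by list. Each point is a gene, red bars are list medians, dotted lines mark a 2-fold difference, and the 5 genes beyond it are named, all of them higher in the cGAMP library.

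Markers of other cells moved with the libraries as well. Lyz2 was at 5.21 and 12.6 CPM and Ptprc, the gene of CD45, at 0.25 and 0.60 CPM. The lymphatic markers summed to 17.7 and 44.9 CPM, of which Lyve1 made up 10.2 and 43.6 CPM, while Prox1, the defining transcription factor of lymphatic ECs, was at 2.01 and 0.99 CPM and Ccl21a was at 5.35 CPM in the PBS library with 0 UMIs in the cGAMP library. The fibroblast and pericyte list summed to 16.9 and 9.78 CPM and the tumour and epithelial list to 2.15 and 0.39 CPM. The T or NK list was at or below 0.21 CPM and the single measured B-cell marker at 1.08 and 1.12 CPM. Their part in the differences of Lbp, Ly96 and Myd88 was not tested. In ECs with no leucocyte marker UMI, which also held fewer UMIs in all, the log2 ratios of these 3 genes were 1.49, 0.20 and 0.46.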

How the data were processed

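The authors aligned the reads of both libraries to mm10 with Cell Ranger 3.0.0 and filtered them with Seurat 3.1.1, dropping cells under 500 genes or above 10% mitochondrial UMIs, genes seen in under 3 cells and clusters lacking Pecam1. The droplet kit is given as version 3 in the methods and version 2 in the labels. Deposited values are natural log values made by the authors, after each cell was scaled to 10000 UMIs and 1 was added. The analysis had been planned for raw counts. UMI counts were therefore recovered, with 100% of nonzero values within 0.01 of whole numbers.

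With 1 library per group no test was possible. Summed UMIs were compared as CPM with exact Poisson intervals, ratios with exact conditional binomial intervals and shares of cells with Clopper-Pearson intervals, all at 95%. Only the ratios with their intervals and the equal-share ratio were tried on simulated data. Those data were Poisson counts without spread between cells. The floor for a count of 0 was 3 UMIs. Shares were taken after thinning to 5000 UMIs, which left out 70 PBS-treated and 13 cGAMP-treated cells. Median mitochondrial shares were 4.49% and 2.87%. Clustering used Seurat 5.3.0 under R 4.3.3 (2500 variable genes, of which 1777 were kept, integration anchors, 30 principal components, resolution 0.5), and doublets were not removed here. A cluster took a name when at least 3 markers of a state were raised 2-fold and no other state had more markers among its 10 leading genes. The naming thresholds postdate a look at the clusters, and rebuilt names need not be those of the study. Positions are from GENCODE vM21, and figures were drawn with matplotlib 3.10.9.

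The 5 genes and all lists were chosen with earlier results of these data known. Named pathway genes are those at least 2-fold different with at least 5 CPM and otherwise the 2 highest of a list; the 3 most similar genes were taken among those with at least 20 CPM, and 1 of them is not reported here. Alternatives were other scalings, cell filters, cluster shares, thinning depths and clusterings.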

Additional observations from a re-analysis of the deposited data

Results flagged for a closer look

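Lbp went in opposite directions in different EC clusters, 4 of which had a counting interval that excluded 0. Its log2 ratio of cGAMP over PBS was -1.75 in arterial ECs, on 20 and 4 UMIs, against 0.44 in proliferative ECs, 1.33 in the Ung/Hells cluster and 0.51 in the Igfbp5/Ctsh cluster. Without the highest cell of each library the proliferative interval reached 0 (-0.00 to 0.83). In arterial ECs Lbp was found in 0.91% and 1.14% of thinned cells, below Lyz2 at 1.22% and 9.71%, and is not read as expression there. In the Ung/Hells cluster Lbp was found in 2.15% and 4.38%, against 1.61% and 5.11% for Lyz2. With 1 library per group, the difference between clusters was not tested.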

How the results depend on the processing

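The sign of all 5 ratios of cGAMP over PBS held under every alternative run. For Tlr4 this gives no clear direction, since its interval included 0 and its ratio was 0.02 with equal cluster shares. Equal shares under other clusterings were run for Cd14 and Lbp only. With equal cluster shares the log2 ratio was 0.493 for Cd14, 0.396 for Lbp and 0.40 for Myd88. Over other clusterings, chosen after seeing the data, equal shares gave 0.50 at resolution 0.3, 0.576 at 1.2, 0.468 with all variable genes and 0.185 without integration for Cd14, and 0.303, 0.477, 0.405 and 1.26 for Lbp, so the part of the Lbp difference that moves with cluster shares depends on integration. Median-of-ratios scaling gave 1.14 for Cd14 and 0.36 for Ly96. The mitochondrial limit of 5% gave 1.21 for Cd14 and 1.81 for Lbp, and thinning gave 1.2 for Cd14, 0.919 for Lbp and 0.195 for Ly96. Mean CPM per cell gave 1.10 for Lbp. Cells with no leucocyte marker gave 1.49 for Lbp, 0.244 for Tlr4 and 0.20 for Ly96. Leaving out the Igfbp5/Ctsh cluster, also chosen after seeing the data, gave 0.991 for Cd14. Of the 5 genes, 2 were at least 1.5-fold different and 2 at least 2-fold different under other scaling. In settings added after seeing the data, the 2-fold count was 0 with equal cluster shares, 1 after thinning, 1 without the Igfbp5/Ctsh cluster and 2 with mean CPM per cell and the other cell filters. The median of all pathway lists was 0.084 under median-of-ratios scaling, that of the kinases turned to 0.00751 at a minimum of 20 CPM, and that of the IL-1 receptor family to 0.0736 under other scaling. For Cd14, stalk-like over other ECs was 2.89 without integration and 2.46 with all variable genes in the PBS library, and 2.37 at resolution 0.3 and 1.76 with all variable genes in the cGAMP library. For Lbp it was 4.65 at resolution 0.3 and 4.97 without integration in the PBS library, and 4.09, 3.50 and 1.08 (all variable genes) in the cGAMP library. At resolution 0.3 and without integration, Igfbp5 and Lbp were leading genes of a stalk-like cluster, so Igfbp5/Ctsh cells were counted as stalk-like. For Ly96 in the PBS library, stalk-like over other ECs turned to 0.251 with all variable genes. No paired analysis was possible because each group had 1 library.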
